A study of Mus musculus with 16 samples.

Results

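The acute phase response is the change in liver protein synthesis that follows inflammation or tissue injury. Interleukin 6 acts through its receptor and the shared subunit gp130 to activate the factor STAT3, and interleukin 1 and tumour necrosis factor act through NF-kB; together with C/EBP factors these raise transcription of secreted proteins in hepatocytes. The serum amyloid A proteins, haptoglobin and the orosomucoids are classical products of this response in mouse liver. The 10 genes described here were taken from a list of such products and targets: the serum amyloid A genes Saa1, Saa2, Saa3 and Saa4, the pentraxin Crp, the orosomucoid Orm1, haptoglobin (Hp), lipocalin 2 (Lcn2), the metalloreductase Steap4 and the signalling inhibitor Socs3. A gene was included where the array annotation gave a row exactly 1 symbol, and of several such rows the brightest on average was used. This left 9 of the 10 listed genes, out of 22180 genes with such a row, and all 9 exceeded the median of each array on 16 of 16 arrays and were tested. Saa1 had no row of its own.

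Transcripts were measured with a 1-colour Affymetrix mouse array in 8 transgenic C57BL/6J mice at an age of 18 months, with 1 tumour and 1 sample of non-tumour liver from each. The 4 MYC/REG3A mice (MYC+/+, REG3A+/+ in the labels) carried the c-MYC oncogene and, as a further transgene, REG3A, which encodes a lectin that is secreted, and the 4 MYC mice (MYC+/+, REG3A-/-) carried c-MYC alone. The 16 arrays therefore form 4 groups of 4: MYC/REG3A tumours, MYC/REG3A non-tumour livers, MYC tumours and MYC non-tumour livers. In all 8 animals c-MYC was driven in liver by woodchuck hepatitis virus sequences, so non-tumour liver is transgenic tissue too, and no wild-type liver is among the groups. The promoter of the REG3A transgene is not given in the sources used here.

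Values are log2 expression levels made by RMA, which equalises the distributions of the arrays, so each change is relative to the other genes of the array. Array medians lay between 4.90 and 4.97, lower quartiles between 3.71 and 3.77 and maxima between 13.55 and 13.68. The 7 mouse REG family genes with a row lay between 2.67 and 4.17 on every array, and none was high enough to be tested; a level of the REG3A transgene itself was not analysed here. The tissue label fitted the hepatocyte markers Alb, Apob, Apoa2, Apoc3, Tat and Hnf4a: their summed level was 14.86 to 15.13 in MYC/REG3A tumours, 15.08 to 15.17 in MYC/REG3A non-tumour livers, 14.74 to 15.02 in MYC tumours and 15.01 to 15.15 in MYC non-tumour livers. In dissected tissue, fewer cells of a type and less RNA per cell cannot be told apart. In MYC/REG3A mice 2 and 4 the tumour and non-tumour samples differed least. Over all tested genes, the SD of the tumour minus non-tumour difference was 0.336 and 0.429 in them, and 0.624 to 0.729 in the other 6 mice. Which sample of the pair accounts for this was not tested.

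The sequences upstream of the start sites show how far the serum amyloid A genes resemble each other and where sites for the factors of the response may lie. RefSeq promoters on GRCm38.p6 were found for 8 of the 10 genes, and for 5 of them the 250 bases before the start are given in the direction of the gene. Saa1 (chr7:46742981-46743230, minus strand), Saa2 (chr7:46751583-46751832, plus strand) and Saa3 (chr7:46715677-46715926, minus strand) stand for their family, and Steap4 (chr5:7960222-7960471, plus strand) and Socs3 (chr11:117969367-117969616, minus strand) for the targets of STAT and NF-kB factors. Capitals mark matches to the motifs described after the sequences.
Saa1: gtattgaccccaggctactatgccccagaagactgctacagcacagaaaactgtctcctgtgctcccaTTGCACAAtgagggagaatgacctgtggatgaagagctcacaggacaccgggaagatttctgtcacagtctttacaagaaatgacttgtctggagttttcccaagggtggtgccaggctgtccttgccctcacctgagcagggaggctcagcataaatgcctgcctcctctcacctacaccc
Saa2: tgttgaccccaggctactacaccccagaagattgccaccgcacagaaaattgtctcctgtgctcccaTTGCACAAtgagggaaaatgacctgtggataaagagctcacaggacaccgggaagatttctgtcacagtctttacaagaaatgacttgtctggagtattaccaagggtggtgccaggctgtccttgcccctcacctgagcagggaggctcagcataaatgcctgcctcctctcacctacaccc
Saa3: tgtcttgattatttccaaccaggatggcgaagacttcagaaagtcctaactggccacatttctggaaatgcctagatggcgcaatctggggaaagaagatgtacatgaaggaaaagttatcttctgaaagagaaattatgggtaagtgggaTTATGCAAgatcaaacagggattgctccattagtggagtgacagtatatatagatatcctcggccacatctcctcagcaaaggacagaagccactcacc
Steap4: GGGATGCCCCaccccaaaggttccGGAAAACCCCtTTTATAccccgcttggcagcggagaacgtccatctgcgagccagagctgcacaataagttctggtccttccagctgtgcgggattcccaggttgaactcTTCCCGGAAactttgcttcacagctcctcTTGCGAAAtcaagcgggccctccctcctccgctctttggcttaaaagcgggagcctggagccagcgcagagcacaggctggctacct
Socs3: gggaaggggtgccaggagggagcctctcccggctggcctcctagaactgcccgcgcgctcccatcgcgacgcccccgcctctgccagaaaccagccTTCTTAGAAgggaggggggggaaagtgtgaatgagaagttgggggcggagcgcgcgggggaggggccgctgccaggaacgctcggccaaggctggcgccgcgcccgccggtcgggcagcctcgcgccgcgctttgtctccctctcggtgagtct

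Aligned with gaps over the window of 300 bases that also takes in the first 50 bases after the start, Saa1 and Saa2 shared 287 of 301 columns (95.3%), while the other pairs of the 4 serum amyloid A genes shared 42.7% to 50.1%. The C/EBP motif TTGCNNAA, searched on both strands, was present in 6 of 8 windows, against 10.8% of the 32851 promoters in the table. In Saa1 and Saa2 it was the same TTGCACAA, at -182 to -175 and at -183 to -176 from the start. Saa3 held it as TTATGCAA at -99 to -92, and Saa4 and Lcn2 held it too. The STAT motif TTCNNNGAA was present in 2 of 8 windows, against 8.3% of all promoters: Steap4 held TTCCCGGAA at -116 to -108 and Socs3 held TTCTTAGAA at -154 to -146. The NF-kB motif was found in Steap4 alone among the 8 (8.46% of all promoters). The letters TATAAA of a TATA box were found in Crp, at -31 to -26, and in Steap4 (13.6% of all promoters). In Steap4 they lay on the opposite strand, as TTTATA, at -215 to -210. No match overlapped another motif in these windows. A match describes the letters of this window and does not show that a factor binds there.

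Tumours had lower levels of most acute phase genes than the non-tumour liver of the same mouse. Averaged over both genotypes, 7 of the 9 genes fell and none rose by limma's test with Benjamini-Hochberg adjustment over all 13555 tested genes, at an adjusted p under 0.05. Of all tested genes, 21.4% were called lower and 21.5% higher in that comparison. The genes that fell were Saa2, Crp, Steap4, Saa3, Socs3, Orm1 and Saa4, in order of size, and Hp and Lcn2 did not pass. The median difference of the 9 genes was -0.82 on the log2 scale, against -0.025 over all tested genes. Mouse by mouse, the median over the 9 genes was -1.41, -0.31, -0.62 and -0.55 in MYC/REG3A mice 1 to 4 and -0.98, -0.68, -0.81 and -0.74 in MYC mice 1 to 4, so it lay below 0 in every animal.

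**Figure D1:**
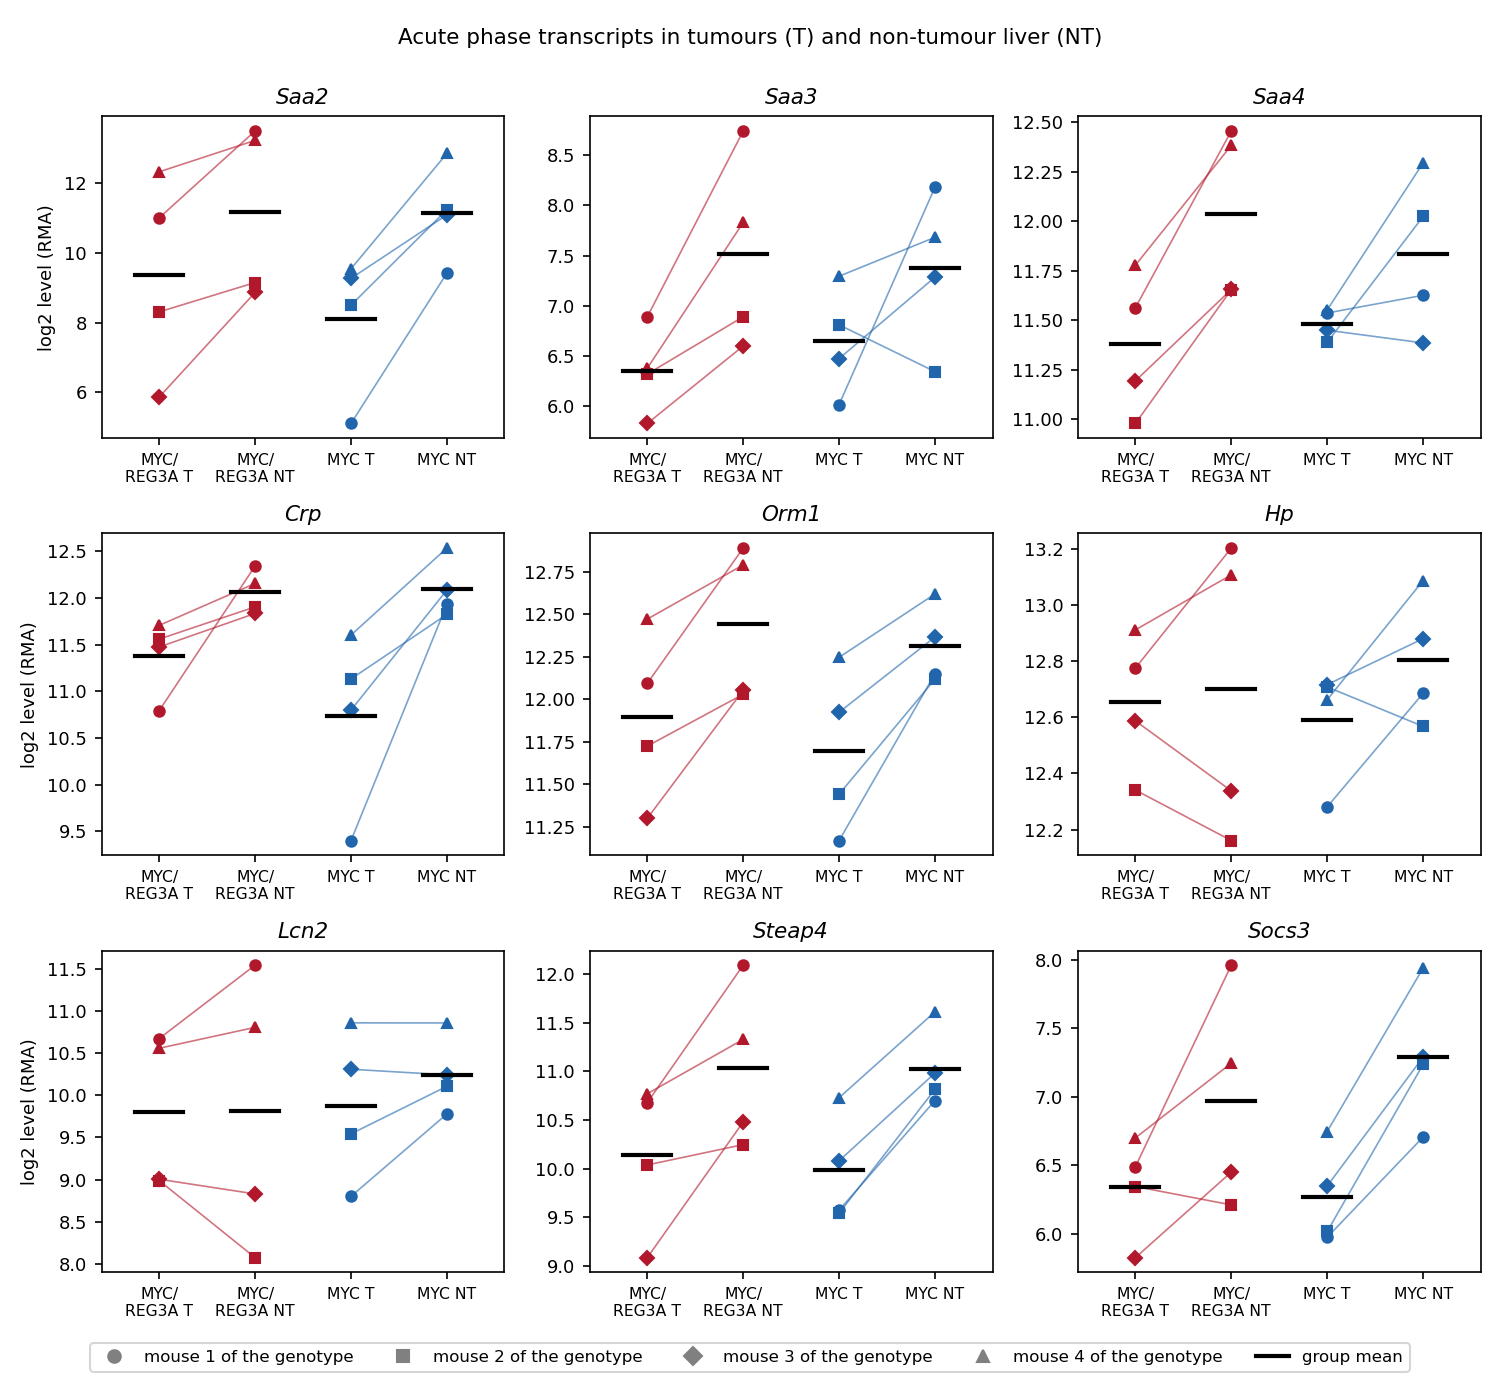
Log2 RMA level (vertical axis, scaled per gene) of the 9 genes in tumours (T) and non-tumour liver (NT) of MYC/REG3A mice (red) and MYC mice (blue), with 1 symbol shape per mouse, lines joining the samples of a mouse and bars at the mean of 4 mice. Saa2 spans 5.11 to 13.50, and its lines, like those of Crp, Orm1 and Steap4, show the tumour below the non-tumour liver in 8 of 8 mice.

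Saa2, an acute phase apolipoprotein of high density lipoprotein, changed most. In MYC/REG3A mice 1 to 4 its level was 11.01, 8.31, 5.87 and 12.33 in the tumours, against 13.50, 9.15, 8.87 and 13.23 in non-tumour liver. In MYC mice 1 to 4 it was 5.11, 8.50, 9.27 and 9.55 in the tumours, against 9.43, 11.24, 11.09 and 12.85 in non-tumour liver. The groups overlapped in both genotypes, but the tumour was lower in 8 of 8 mice. By mouse, the difference ranged from -4.31 in MYC mouse 1 to -0.84 in MYC/REG3A mouse 2 on the log2 scale.

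By limma, Saa2 fell by 1.81 on the log2 scale in MYC/REG3A tumours (SE 0.428, n = 4 mice, adjusted p = 0.0265), which is 3.50-fold lower. In MYC tumours it fell by 3.05 (SE 0.428, n = 4 mice, adjusted p = 0.0013), or 8.26-fold. Averaged over the genotypes the fall was 2.43 (SE 0.303, n = 8 mice, adjusted p = 0.000369), and an exact sign-flip permutation of the 8 within-mouse differences gave p = 0.0078, the smallest it can give. The highest non-tumour levels of Saa2 lay close to the array maxima, where RMA values may compress differences, which was not measured here.

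A row that the annotation gives to both Saa1 and Saa2 is no row of either gene, and it was not tested. Its level was 8.16, 5.44, 4.28 and 9.68 in MYC/REG3A tumours 1 to 4, against 12.20, 5.73, 6.72 and 11.75 in the non-tumour livers. In MYC mice it was 4.33, 5.39, 6.19 and 6.18 in the tumours, against 6.79, 9.37, 8.66 and 10.82 in non-tumour liver. It was lower in the tumour of 8 of 8 mice, by 2.80 on average on the log2 scale. Signals of the near-identical Saa1 and Saa2 cannot be told apart with certainty on this array, so the Saa2 values may include Saa1.

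Saa3, a serum amyloid A that macrophages and fat cells make as well as hepatocytes, had levels of 6.89, 6.32, 5.83 and 6.38 in MYC/REG3A tumours 1 to 4, against 8.74, 6.89, 6.60 and 7.83 in the non-tumour livers. In MYC mice the levels were 6.02, 6.81, 6.47 and 7.29 in the tumours, against 8.18, 6.34, 7.29 and 7.68 in non-tumour liver. The tumour was lower in 7 of 8 mice, with MYC mouse 2 the exception at +0.47. Averaged over genotypes Saa3 fell by 0.94 (SE 0.251, n = 8 mice, adjusted p = 0.0137; exact sign-flip p = 0.0234). Within a genotype it passed in neither: -1.16 with an adjusted p = 0.0594 by limma in MYC/REG3A tumours and -0.72 with an adjusted p = 0.144 in MYC tumours. These within-genotype values depended on single mice and settings. In MYC tumours the difference was -0.24 without MYC mouse 1 (adjusted p = 0.57 by limma) and -1.12 without MYC mouse 2, when it passed (adjusted p = 0.0357). In MYC/REG3A tumours Saa3 passed under 5 of 18 alternatives: arrays centred on their median, array weights, only the arrays of the genotype, and without MYC mouse 1 or 2 (difference -1.19 to -1.10, limma adjusted p down to 0.0233).

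Saa4, the member of the family that is made constitutively, had levels of 11.56, 10.98, 11.19 and 11.78 in MYC/REG3A tumours, against 12.46, 11.65, 11.65 and 12.38 in the non-tumour livers. In MYC mice it had 11.54, 11.39, 11.45 and 11.55 in the tumours, against 11.63, 12.02, 11.38 and 12.30 in non-tumour liver. The MYC tumours were tightly grouped and the MYC non-tumour livers spanned both sides of them. Saa4 fell by 0.66 in MYC/REG3A tumours (SE 0.146, limma adjusted p = 0.0221). In MYC tumours the difference was -0.35 and missed the threshold (adjusted p = 0.0918 by limma), and averaged over genotypes the fall was 0.51 (limma adjusted p = 0.0038).

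Crp encodes C-reactive protein, a pentraxin that binds phosphocholine and that responds weakly to inflammation in mice. Its levels were 10.79, 11.56, 11.48 and 11.71 in MYC/REG3A tumours, against 12.35, 11.91, 11.84 and 12.16 in the non-tumour livers. In MYC mice they were 9.40, 11.13, 10.80 and 11.60 in the tumours, against 11.94, 11.83, 12.09 and 12.54 in non-tumour liver. Crp was the gene of the set whose tumour and non-tumour groups did not overlap in either genotype. The share of all tested genes without such overlap was not computed, so this does not set Crp apart from other genes. It fell by 1.36 in MYC tumours (SE 0.291, limma adjusted p = 0.00669), or 2.57-fold. In MYC/REG3A tumours the difference was -0.68 and did not pass (adjusted p = 0.151 by limma), with mouse 1 at -1.55 and the other 3 between -0.45 and -0.35. Averaged over genotypes the fall was 1.02 (limma adjusted p = 0.00353), and the tumour was lower in 8 of 8 mice.

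Orm1 encodes orosomucoid 1, a plasma carrier glycoprotein, and was among the strongest signals of the arrays. It had 12.09, 11.72, 11.30 and 12.47 in MYC/REG3A tumours, against 12.89, 12.03, 12.05 and 12.79 in the non-tumour livers. In MYC mice it had 11.17, 11.44, 11.92 and 12.25 in the tumours, against 12.15, 12.12, 12.37 and 12.62 in non-tumour liver. Its change was small and even, between -0.98 and -0.31 in all 8 mice. Orm1 fell by 0.54 in MYC/REG3A tumours (limma adjusted p = 0.0307), by 0.62 in MYC tumours (adjusted p = 0.00724) and by 0.58 on average (adjusted p = 0.00126). Transcripts of the related genes Orm2 and Orm3 may add to its signal, which was not tested.

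Haptoglobin, which binds free haemoglobin in plasma, did not pass in any comparison. Hp had 12.78, 12.34, 12.59 and 12.91 in MYC/REG3A tumours, against 13.20, 12.16, 12.34 and 13.11 in the non-tumour livers. In MYC mice it had 12.28, 12.71, 12.72 and 12.66 in the tumours, against 12.69, 12.57, 12.88 and 13.09 in non-tumour liver. The tumour was lower in 5 of 8 mice. The averaged difference was -0.13, with a 95% interval from -0.35 to 0.092 (limma adjusted p = 0.324), so a fall as large as that of Orm1 lay outside the interval. All Hp levels lay near the top of the scale, where differences may be compressed, which was not measured here.

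Lipocalin 2, which binds bacterial siderophores and is made by neutrophils as well as hepatocytes, did not pass either. Lcn2 had 10.68, 8.99, 9.0 and 10.56 in MYC/REG3A tumours, against 11.55, 8.07, 8.83 and 10.81 in the non-tumour livers. In MYC mice it had 8.80, 9.54, 10.31 and 10.86 in the tumours, against 9.78, 10.11, 10.24 and 10.86 in non-tumour liver. The direction was split, with the tumour lower in 4 of 8 mice, and the averaged difference was -0.19 with a 95% interval from -0.60 to 0.23 (limma adjusted p = 0.449). What separated its levels was the mouse: in MYC/REG3A animals, mice 1 and 4 lay above mice 2 and 3 in both tissues.

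Steap4, a membrane metalloreductase that reduces iron and copper and is induced by inflammatory cytokines, had 10.68, 10.04, 9.08 and 10.77 in MYC/REG3A tumours, against 12.09, 10.25, 10.48 and 11.33 in the non-tumour livers. In MYC mice it had 9.57, 9.54, 10.08 and 10.73 in the tumours, against 10.70, 10.82, 10.98 and 11.61 in non-tumour liver. The tumour was lower in 8 of 8 mice. Steap4 fell by 0.89 in MYC/REG3A tumours (limma adjusted p = 0.0206), by 1.05 in MYC tumours (adjusted p = 0.00383) and by 0.97 on average (SE 0.137, adjusted p = 0.000627).

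Socs3, the feedback inhibitor that STAT3 induces and that blocks gp130 signalling, lay lower on the scale. Its levels were 6.49, 6.34, 5.82 and 6.70 in MYC/REG3A tumours, against 7.96, 6.21, 6.45 and 7.25 in the non-tumour livers. In MYC mice they were 5.97, 6.02, 6.35 and 6.75 in the tumours, against 6.71, 7.24, 7.29 and 7.94 in non-tumour liver. The tumour was lower in 7 of 8 mice, with MYC/REG3A mouse 2 the exception at +0.13. Socs3 fell by 1.02 in MYC tumours (SE 0.21, limma adjusted p = 0.0057) and by 0.82 on average (adjusted p = 0.00199). In MYC/REG3A tumours the difference was -0.63 (adjusted p = 0.0768 by limma). A second Socs3 row lay between 3.19 and 3.79 on the 16 arrays, around the lower quartile, and was not used.

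**Figure D2:**
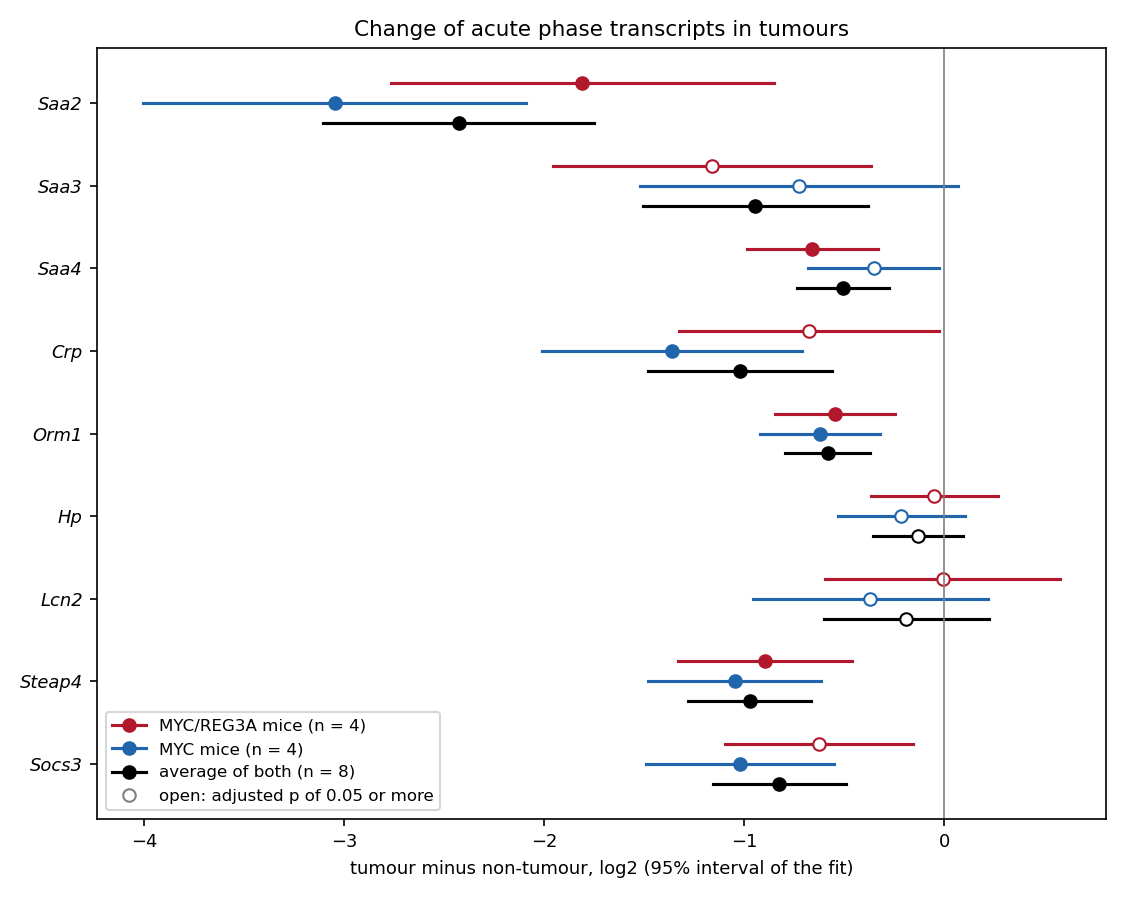
Log2 difference of tumour minus non-tumour liver (horizontal axis) for the 9 genes, with 95% intervals of the limma fit, in MYC/REG3A mice (red), MYC mice (blue) and their average (black). Filled points passed an adjusted p of 0.05. All 9 averages lie below 0, from -0.13 for Hp to -2.43 for Saa2, and 7 of them passed.

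By genotype, 4 of the 9 genes fell in MYC/REG3A tumours, Saa2, Saa4, Orm1 and Steap4, and none rose, where 4.88% of all tested genes were called lower. The median difference of the 9 genes was -0.66, against -0.018 over all tested genes. In MYC tumours 5 of the 9 fell, Saa2, Crp, Orm1, Steap4 and Socs3, where 15.8% of all tested genes were called lower, and the median was -0.72, against -0.026. The calls in MYC/REG3A mice rested on single animals: 0 of the 9 genes passed without mouse 1 and 0 without mouse 3, when 281 and 273 of all tested genes passed, against 1690 with all mice. Without mouse 4, 2 genes passed, and without mouse 2, 5 passed. Without both mice 2 and 4, whose tumour and non-tumour samples differed least, 4 passed: Saa2, which then fell by 2.75, Orm1, Steap4 and Socs3. In MYC mice the count was 5 or 6 with any mouse left out, and the averaged count was 7 with any of the 8 mice left out. Without the mouse as a block the counts were 0 in MYC/REG3A, 2 in MYC and 6 on average.

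The tumour change was not shown to differ between genotypes for any of the 9 genes. In the direct test of the difference, MYC/REG3A minus MYC, limma called 0 of the 9 genes, and 0 at an unadjusted p under 0.05. Of all tested genes, 0.00738% were called and 5.58% had an unadjusted p under 0.05. For Saa2 the difference of the changes was 1.24 on the log2 scale, with a 95% interval from -0.12 to 2.59 (limma adjusted p = 0.873), and it was 0.30 without MYC/REG3A mice 2 and 4. For Crp it was 0.68, from -0.23 to 1.60, and for Steap4 0.15, from -0.46 to 0.77. The intervals of Saa2 and Crp reach differences larger than the MYC/REG3A changes of these genes, so equal changes are not shown.

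Levels were also compared between genotypes within a tissue. In tumours, MYC/REG3A against MYC, limma called 0 of the 9 genes, and 0 at an unadjusted p under 0.05, where 0.0221% of all tested genes were called and 10.6% had such a p. Crp had the smallest p, with a difference of 0.65 and a 95% interval from -0.095 to 1.39 (limma adjusted p = 0.538). Saa2 averaged 9.38 ± 2.9 in MYC/REG3A tumours and 8.11 ± 2.0 in MYC tumours (SD, n = 4 each). In non-tumour liver limma again called 0 of the 9, and 0 at an unadjusted p under 0.05, where 0% of all tested genes were called and 5.45% had such a p. There Saa2 averaged 11.19 ± 2.5 in MYC/REG3A mice and 11.15 ± 1.4 in MYC mice (SD, n = 4 each), a difference of 0.033 with a 95% interval from -3.00 to 3.06. With intervals this wide, a REG3A-related difference of several fold in Saa2 was not detectable with 4 mice per genotype.

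Mice of the same genotype differed widely in some of these genes. In non-tumour liver the SD of Saa2 within genotypes was 2.04 on the log2 scale, rank 5 of 13555 genes, and in tumours it was 2.50, rank 6. The median gene had an SD of 0.169 in non-tumour liver and 0.221 in tumours. Lcn2 had an SD of 1.20 in non-tumour liver, at rank 33, and Saa3 had 0.88, at rank 115. Hp, Saa4 and Crp varied less, with SDs of 0.41, 0.42 and 0.28 in non-tumour liver. The order of the mice was shared across genes. MYC/REG3A mouse 1 was among the 3 highest of the 8 non-tumour livers for 9 of 9 genes and the highest for 8, while MYC/REG3A mouse 2 was among the 3 lowest for all 9 and MYC/REG3A mouse 3 for 8. In tumours, MYC/REG3A mouse 4 was among the 3 highest for 8 genes, and MYC mouse 1 and MYC/REG3A mouse 3 were among the 3 lowest for 8 each.

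In non-tumour liver most of the other genes followed Saa2 from mouse to mouse. In all, 25 relations over the 8 mice were computed, and adjusted p is given by Benjamini-Hochberg over these 25. Orm1 correlated with Saa2 at r = 0.94 (exact permutation p = 0.00161, adjusted p = 0.0101) and rho = 0.90 (exact p = 0.00456, adjusted p = 0.0163), and at r = 0.91 without the 2 mice farthest from the median of Saa2. Steap4 had r = 0.92 (exact permutation p = 0.000818, adjusted p = 0.00682) and rho = 0.93 (exact p = 0.00223, adjusted p = 0.0163), with r = 0.92 without those mice. Lcn2 had r = 0.91 (exact permutation p = 0.000595, adjusted p = 0.00682) and rho = 0.93 (exact p = 0.00223, adjusted p = 0.0163), with r = 0.86 without them. Hp and Socs3 had r = 0.91 each (exact permutation adjusted p = 0.0149 for both), although Hp had a narrow range, and Saa4 and Crp had 0.84 and 0.80 (exact permutation adjusted p = 0.0254 and 0.0366). By rank, Saa4 and Crp did not pass (adjusted p = 0.0674 and 0.0867 by exact permutation of rho). Saa3 did not pass, at r = 0.55 (exact permutation p = 0.161, adjusted p = 0.191), and 0.17 without the 2 mice.

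In tumours the same comparison gave r = 0.93 for Orm1 (exact permutation p = 0.000694, adjusted p = 0.00682) and rho = 0.95 (exact p = 0.00114, adjusted p = 0.0163), with r = 0.84 without the 2 farthest mice. Steap4 had r = 0.86 (adjusted p = 0.0153 by exact permutation; 0.90 without them), Lcn2 0.85 (adjusted p = 0.0149 by exact permutation; 0.82 without them) and Socs3 0.84 (adjusted p = 0.0206 by exact permutation; 0.79 without them). Hp had r = 0.80 (exact permutation adjusted p = 0.034), but 0.47 without the 2 farthest mice. Saa3 and Saa4 had r = 0.59 and 0.52 and did not pass (exact permutation adjusted p = 0.162 and 0.212). Crp had r = 0.52 (exact permutation p = 0.196, adjusted p = 0.213), which turned to -0.55 without the 2 farthest mice, so any relation of Crp to Saa2 in tumours rests on those samples. Each genotype has 4 mice, too few to give these relations within it, and the genes of a tissue share the same 8 arrays.

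**Figure D3:**
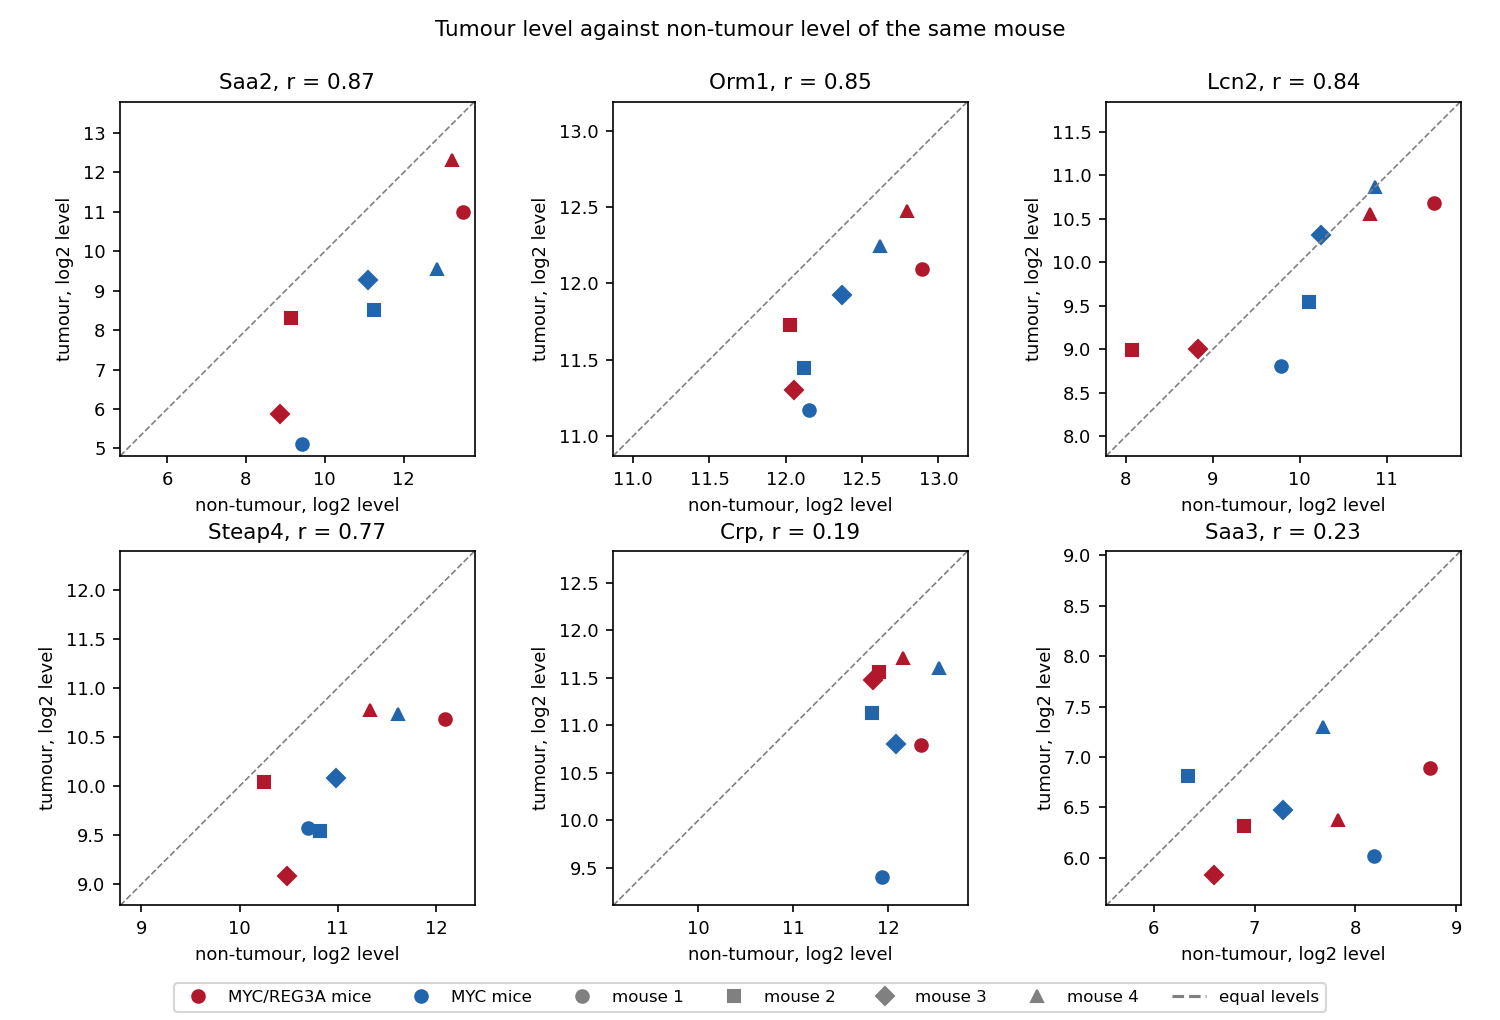
Log2 level in the tumour (vertical axis) against the log2 level in non-tumour liver of the same mouse (horizontal axis) for 6 of the genes, with MYC/REG3A mice in red and MYC mice in blue, and the dashed line at equal levels. For Saa2, Orm1 and Steap4 the 8 points lie below the line and run along it (r = 0.87, 0.85 and 0.77), while those of Crp and Saa3 do not run along it (r = 0.19 and 0.23).

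For some of the genes the tumour level was related to the non-tumour level of the same mouse. Here too the share of all tested genes with such a relation was not computed. Saa2 in the tumour correlated with Saa2 in non-tumour liver at r = 0.87 (exact permutation p = 0.0035, adjusted p = 0.0149) and rho = 0.88 (exact p = 0.00724, adjusted p = 0.0181), and at r = 0.81 without the 2 mice farthest from the median. Lcn2 had r = 0.84 (exact permutation p = 0.00538, adjusted p = 0.0149) and rho = 0.90 (exact p = 0.00456, adjusted p = 0.0163), with r = 0.86 without the 2 mice. Orm1 had r = 0.85 and Steap4 0.77 (exact permutation adjusted p = 0.0254 and 0.0424; 0.81 and 0.63 without the 2 mice), but by rank neither passed (adjusted p = 0.08 and 0.0674 by exact permutation of rho). Hp, Socs3 and Saa4 had r = 0.67, 0.63 and 0.59 and did not pass (exact permutation adjusted p = 0.104, 0.141 and 0.162). Crp and Saa3 had 0.19 and 0.23 (exact permutation adjusted p = 0.665 and 0.612). Lcn2 thus differed widely between mice, alike in both tissues, without a called change between the tissues.

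Genes whose pattern over the 16 arrays was most like the mean of the 9 standardised genes, beside Steap4, Orm1, Saa2 and Socs3 of the 9 themselves (Pearson r 0.94 to 0.96), were Slc41a2, a magnesium transporter (0.93), Flot1, a lipid raft protein (0.92), the co-chaperone Dnajc12 (0.92), the leucine-rich glycoprotein Lrg1 (0.91) and the haem carrier haemopexin, Hpx (0.91). Each of the 9 genes is itself part of that mean. Even so, Hp, Saa4, Lcn2, Saa3 and Crp followed it less closely, with r = 0.84, 0.83, 0.82, 0.82 and 0.72. They ranked 38, 51, 55, 56 and 199, with predicted genes and small RNAs left out. These correlations are descriptions over arrays that share animals and carry no test. Lrg1 and Hpx are themselves acute phase proteins.

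Other positive acute phase genes behaved unevenly. Of 20 tested, averaged over genotypes, 10 fell and none rose, where 21.4% of all tested genes were called lower. Their median was -0.43, against -0.025 over all tested genes. Apcs, the serum amyloid P component that is the main acute phase pentraxin of mice, fell by 2.08 (SE 0.412, limma adjusted p = 0.00321). Fgl1, a fibrinogen-like protein that hepatocytes secrete, fell by 1.29 (adjusted p = 0.00103 by limma), and complement factor B, Cfb, by 0.76 (adjusted p = 0.000451). Orm3 and Orm2 fell by 1.20 and 0.90, Lrg1 by 0.94, the metallothioneins Mt2 and Mt1 by 0.67 and 0.58, and the inter-alpha-trypsin inhibitor chain Itih4 by 0.39. With no mouse block in the fit, the calls of Lrg1, Mt1 and Orm3 were lost (adjusted p = 0.0798, 0.0739 and 0.0667 by limma), and with the mouse as a random block those of Lrg1 and Mt1 (adjusted p = 0.0544 and 0.0512). The call of Orm2 was lost when any of MYC mice 1, 3 and 4 or MYC/REG3A mice 1, 2 and 4 was left out (adjusted p up to 0.117 by limma). That of hepcidin, Hamp, which fell by 1.27, was lost without MYC mouse 2 or MYC/REG3A mouse 1 or 3 (adjusted p up to 0.109). Hamp spanned 3.90 to 12.4 in MYC tumours and 4.08 to 12.79 in MYC non-tumour livers, so its lowest levels lay below the array medians.

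Beside these, abundant plasma proteins of the response did not pass. The fibrinogen chains Fga, Fgb and Fgg differed by 0.04, -0.03 and 0.0024 on average, Hpx by -0.23, ceruloplasmin (Cp) by -0.07, Serpina3n by 0.12 and the lipopolysaccharide-binding protein Lbp by 0.28. Itih3 did not pass either, at a mean of 11.31 in MYC/REG3A tumours against 11.92 in the non-tumour livers, and 11.49 against 11.81 in MYC mice. Fgb and Fgg (up to 13.29), Hpx (up to 13.31) and Serpina3n (up to 13.08) lay near the top of the scale. Differences may be compressed there, which was not measured here. Within genotypes, 4 of the 20 fell in MYC/REG3A tumours, Orm3, Apcs, Cfb and Fgl1, where 4.88% of all tested genes were called lower. In MYC tumours 9 of the 20 fell, the same 4 with Orm2, Itih4, Lrg1, Mt1 and Mt2, where 15.8% were called lower. The calls of these 4 in MYC/REG3A tumours were each lost without mouse 1 or without mouse 3 of that genotype (limma adjusted p from 0.0541 to 0.178), and those of Apcs and Orm3 in MYC tumours without MYC mouse 1 (adjusted p = 0.101 and 0.161). Of the negative acute phase genes, whose products decline in inflammation, 2 of 8 tested (25%) fell and none rose, a share near the 21.4% of all tested genes called lower. These were Igf1 by 0.70 and Pon1 by 0.90 (limma adjusted p = 0.000346 and 0.000417). Albumin (Alb) differed by -0.13 (adjusted p = 0.131) and transthyretin (Ttr) by -0.06 (adjusted p = 0.462 by limma). Alb (13.26 to 13.57) and Ttr (12.94 to 13.25) lay near the array maxima too, with the same limit.

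**Figure D4:**
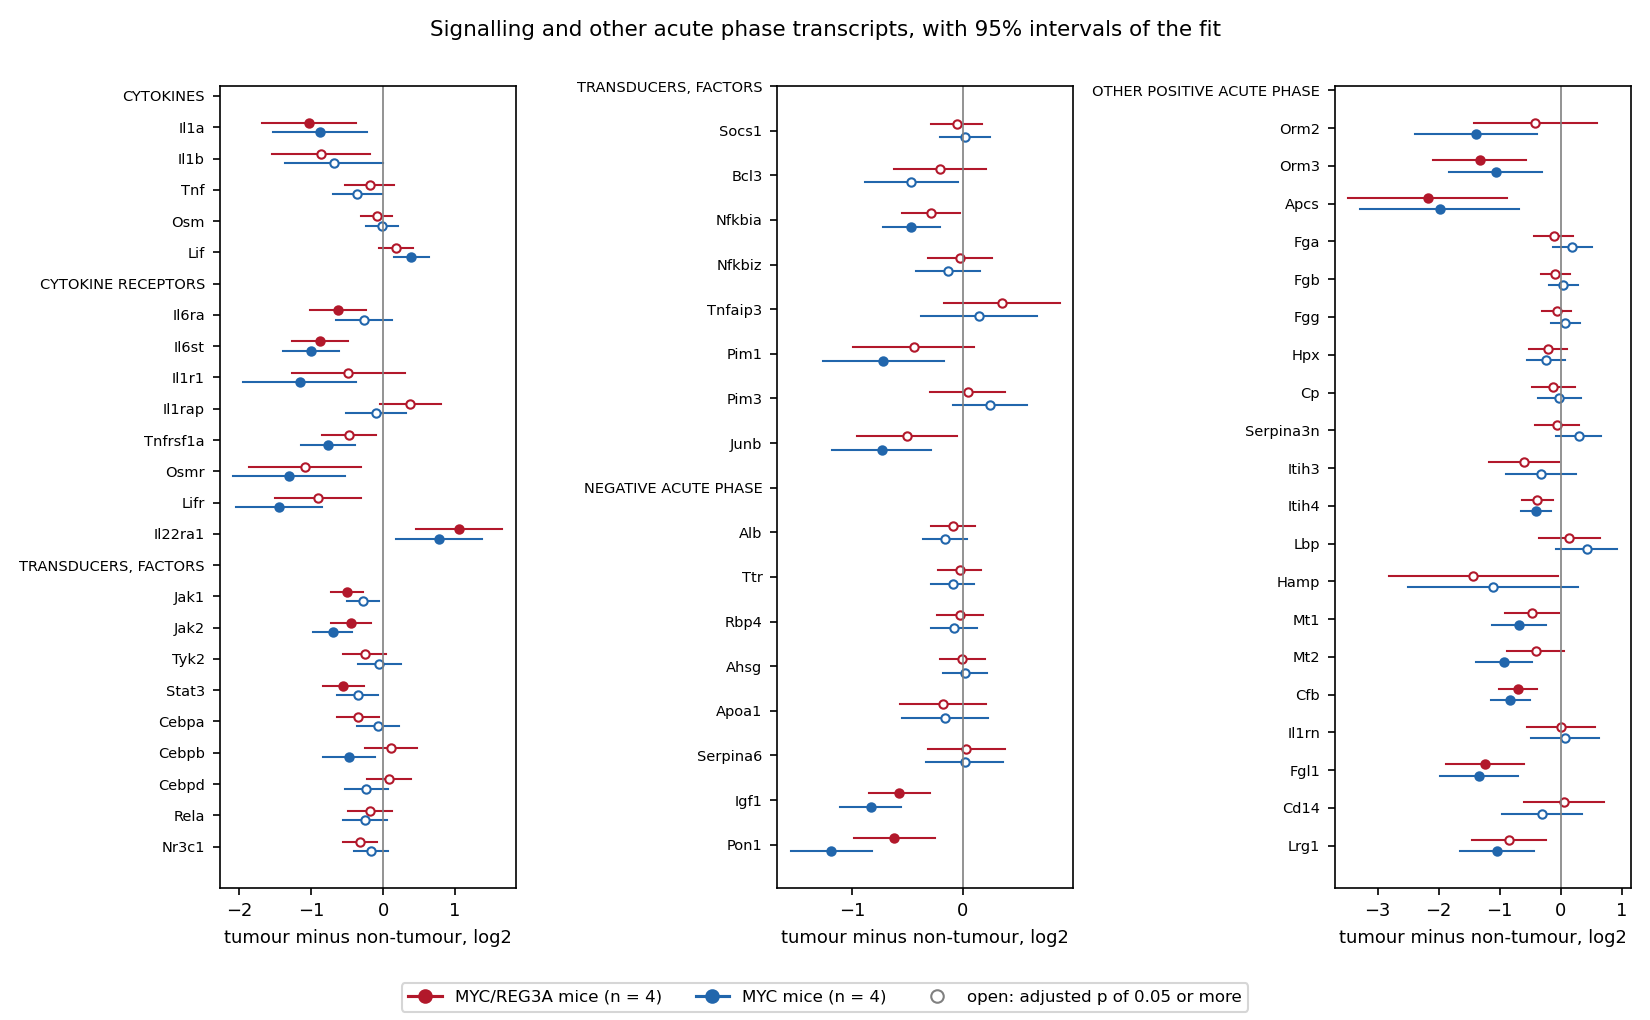
Log2 difference of tumour minus non-tumour liver (horizontal axis) with 95% intervals of the limma fit for cytokines, receptors, signal transducers and targets, and for other positive and negative acute phase genes, in MYC/REG3A mice (red) and MYC mice (blue). Filled points passed an adjusted p of 0.05; among the receptors Il6st fell and Il22ra1 rose in both genotypes (calls that were lost with single mice left out, except that of Il6st in MYC tumours), and the fibrinogen chains lie near 0.

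The signalling side of the response was read from lists of cytokines, receptors and transducers. Il6 itself lay between 3.31 and 3.47 on all 16 arrays, below the lower quartile of each, so no change of its transcript could be measured. Il1a was lower in tumours: it averaged 6.01 ± 0.74 in MYC/REG3A tumours against 7.03 ± 0.28 in the non-tumour livers, and 6.45 ± 0.18 in MYC tumours against 7.33 ± 0.65 in the non-tumour livers (SD, n = 4 each). Averaged over genotypes Il1a fell by 0.95 (limma adjusted p = 0.00523) and Il1b by 0.77 (adjusted p = 0.0167), and Lif rose by 0.29 (adjusted p = 0.0131). Lif lay around the array medians of 4.90 to 4.97. It had 4.85 to 5.29 in MYC/REG3A tumours against 4.76 to 4.98 in the non-tumour livers, and 4.90 to 5.43 in MYC tumours against 4.63 to 4.81. It thus passed the filter largely through the tumours, so the filter itself favoured a rise. Tnf and Osm differed by -0.27 and -0.05 and did not pass, and Il11 and Il22 were not high enough to be tested.

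Of 8 cytokine receptor genes, averaged over genotypes, 6 fell and 1 rose, where 21.4% of all tested genes were called lower and 21.5% higher. Il6st, which encodes gp130, averaged 10.05 ± 0.33 in MYC/REG3A tumours against 10.93 ± 0.14 in the non-tumour livers, and 10.08 ± 0.39 in MYC tumours against 11.08 ± 0.10 in the non-tumour livers (SD, n = 4 each). It fell by 0.94 on average (SE 0.124, limma adjusted p = 0.000463). Its call in MYC/REG3A tumours was lost without mouse 1 or 3 of that genotype (adjusted p = 0.0837 and 0.0847), as were 29 and 32 of the 33 calls made there among all the gene lists. Lifr and Osmr, which pair with gp130 to bind leukaemia inhibitory factor and oncostatin M, fell by 1.18 and 1.19 (adjusted p = 0.00112 and 0.00391 by limma). The interleukin 6 receptor Il6ra fell by 0.45 and the tumour necrosis factor receptor Tnfrsf1a by 0.62. The call of Il6ra was lost with the mouse as a random block and without a block (adjusted p = 0.0564 and 0.0791 by limma). Il1r1 fell by 0.82 but did not pass without MYC mouse 1 or 3 or MYC/REG3A mouse 1 or 2 (adjusted p up to 0.0653). Il22ra1, a receptor chain for interleukin 22, rose by 0.92 (limma adjusted p = 0.00385). Within genotypes its call was lost with single mice left out, with an adjusted p of up to 0.146 in MYC/REG3A and up to 0.173 in MYC tumours.

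Among 9 tested transducers and transcription factors, 4 fell on average: Jak2 by 0.57, Jak1 by 0.39, Stat3 by 0.45 and the glucocorticoid receptor Nr3c1 by 0.24 (limma adjusted p = 0.000873, 0.00204, 0.00312 and 0.0256). The call of Nr3c1 was lost without MYC mouse 1 or 3 or MYC/REG3A mouse 1 or 2 (adjusted p up to 0.065). Cebpa, Cebpb, Cebpd, Rela and Tyk2 differed by -0.22 to -0.08 on average and did not pass. In MYC tumours alone Cebpb was called lower, by 0.48, a call lost without MYC mouse 1, 2 or 3 (limma adjusted p up to 0.172). In MYC/REG3A mice Cebpb averaged 7.57 in tumours against 7.46 in non-tumour liver. Of 8 feedback and immediate target genes beside Socs3, Nfkbia, Junb and Pim1 fell by 0.38, 0.62 and 0.58 (limma adjusted p = 0.0051, 0.00681 and 0.0217), and 5 did not pass, Socs1 among them at -0.02. The call of Pim1 was lost without MYC/REG3A mouse 3 (adjusted p = 0.0551). Beside these 4 of 9 transducers and factors and 3 of 8 targets, 21.4% of all tested genes were called lower on average. None of these list genes was called in the direct tests between genotypes.

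Markers of other cells of the liver were read in the same comparisons, and their relation to the acute phase genes was not tested. Averaged over genotypes, 21.4% of all tested genes were called lower and 21.5% higher. Of 10 markers of Kupffer cells and macrophages, 9 fell on average over genotypes, with Folr2, Clec4f and Vsig4 lower by 2.03, 1.89 and 1.76 on the log2 scale. Their summed level was 10.60 to 12.04 in MYC/REG3A tumours against 12.32 to 12.87 in the non-tumour livers, and 11.32 to 12.24 in MYC tumours against 12.02 to 13.56 in the non-tumour livers. Of 7 tested neutrophil markers 3 fell on average, where 21.4% of all tested genes did. In MYC/REG3A tumours 0 of 7 fell (4.88% of all tested genes), and in MYC tumours 4 of 7 (15.8% of all tested genes). Their summed level was 7.92 to 8.51 in MYC/REG3A tumours against 8.23 to 9.12 in the non-tumour livers, and 8.04 to 9.49 in MYC tumours against 8.25 to 9.61 in the non-tumour livers. Of 5 markers of sinusoidal endothelium 4 fell, with Clec4g, Stab2, Fcgr2b and Kdr lower by 1.58, 0.87, 0.85 and 0.75, and Lyve1 did not pass. Their summed level was 10.37 to 11.49 in MYC/REG3A tumours against 11.51 to 11.87 in the non-tumour livers, and 10.71 to 11.20 in MYC tumours against 11.61 to 12.45 in the non-tumour livers. Of 5 stellate cell markers Reln, Lrat, Dcn and Des fell by 1.76, 1.43, 1.30 and 0.76. Col1a1 rose by 0.40 (limma adjusted p = 0.0454), a call that was lost with any single mouse except MYC mouse 1 left out (adjusted p up to 0.117). The summed level of the stellate markers was 9.34 to 11.60 in MYC/REG3A tumours against 11.61 to 11.90 in the non-tumour livers, and 10.36 to 10.93 in MYC tumours against 11.74 to 12.49 in the non-tumour livers. Of 3 tested B and T cell markers 1 fell, Cd79a by 0.98, where 21.4% of all tested genes were called lower.

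Of 7 adipocyte markers with a row, 4 were tested and 3 of these rose, where 21.5% of all tested genes did. Fabp4 rose by 2.31, Cidec by 2.02 and Plin4 by 1.18, and the Cidec call was lost without MYC/REG3A mouse 1 or 3 (limma adjusted p = 0.0688 and 0.067). Plin1 differed by 0.048 and did not pass. The adipokine genes Adipoq and Lep lay between 3.75 and 3.99 and between 3.81 and 4.33 on the 16 arrays, and Retn between 4.46 and 5.17, and none of these 3 was high enough to be tested. The list had a summed level of 9.27 to 10.92 in MYC/REG3A tumours against 8.02 to 8.62 in the non-tumour livers, and 9.34 to 12.33 in MYC tumours against 8.48 to 10.26 in the non-tumour livers. The part of any of these cell types in the levels of Saa3, Lcn2, Il1a and the other genes was not tested. Of the 6 hepatocyte markers, Tat fell by 0.70 and Hnf4a by 0.24, where 21.4% of all tested genes were called lower. Hnf4a did not pass without MYC/REG3A mice 2 and 4 (limma adjusted p = 0.0848). Alb, Apob, Apoa2 and Apoc3 differed by -0.14 to -0.06 and did not pass.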

How the data were processed

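Values are on the log2 scale as the authors deposited them; per the submitters' processing notes they come from the RMA method of Affymetrix Expression Console, version 1.4.1. RMA corrects background, makes array distributions equal and summarises the probes of a transcript. The base of the logarithm is not stated, and log2 was inferred from their range. The build of the array design is not given in the sources used here, so coordinates come from RefSeq promoters on GRCm38.p6. The table has 41345 rows, of which 23521 had 1 gene symbol, 1814 several and 16010 none; only rows with 1 symbol were used. Detection calls were not used here, so the signal over background of a gene is not known. Precision is set by the number of arrays.

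A gene was tested when it exceeded the array median on at least 4 of 16 arrays, which left 13555 genes. Differences were fitted with lmFit and eBayes of limma 3.58.1 (R 4.3.3), 2-sided and over all 16 arrays, with Benjamini-Hochberg adjustment and a threshold of 0.05. Comparisons of tumour with non-tumour liver were blocked on the mouse, because its tumour and non-tumour sample are 1 animal's. The deviations of these 2 arrays from their group means correlated at 0.0963 to 0.325, and in 8 of 8 mice the tumour correlated best with the non-tumour sample of its own mouse. Genotypes were compared over group means with no term for the mouse. Their spread thus treats the tumour and non-tumour array of a mouse as independent. Fits to the arrays of 1 tissue alone also called 0 of the 9 genes. Standard errors rest on a spread pooled over all groups. Sign flips of the within-mouse differences and permutations of correlations were enumerated exactly in Python 3.11.15 with NumPy 2.4.6. The fits were tested on simulated data. Alternatives changed the filters, the row of a gene, the scaling, the variance model, array weights, the block and the mice.

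The 10 genes and all gene lists were chosen with earlier results of these data known. The 10 genes were always named. From each other list up to 4 genes of lowest p were named in a comparison among those past the threshold, the cytokines and the other positive and negative acute phase genes could be named in full, and so were the 5 genes most alike in pattern. Genes outside that rule, such as receptors that did not pass or whose call was lost, were named after their values were seen.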

Additional observations from a re-analysis of the deposited data

Results flagged for a closer look

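Hp in the tumour of MYC mouse 1 had a level of 12.28, and the other 3 MYC tumours lay between 12.66 and 12.72. The gap to its nearest neighbour was 0.876 of the range of the group and exceeded the critical value of Dixon's test for 4 samples. Of 36 groups of 4 examined, 1 was marked in this way, and chance marks about 1 in 20. The same tumour had the lowest Saa2, Crp, Orm1 and Lcn2 levels of the 8 tumours.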

How the results depend on the processing

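Averaged over genotypes, 7 of the 9 genes passed under every alternative that kept the mouse in the fit, and 6 without it, when Saa2 did not pass (adjusted p = 0.0644 by limma). In the paired comparisons within genotype the block mattered more. With no replicate block the counts were 0 in MYC/REG3A and 2 in MYC tumours, against 4 and 5 with it, and with the mouse as a random replicate block they were 1 and 3. Leaving out 1 mouse gave 0 to 5 in MYC/REG3A and 5 to 6 in MYC tumours; the cause was not tested. Blocking on the shared mouse number across genotypes, which pairs no animals, changed no call of these genes.

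No called difference reversed. Of 54 differences, 17 changed sign under at least 1 alternative, all uncalled, and 0 of the 27 that compare the genotypes with each other were called under any alternative. With 1 mouse left out, these ranged as follows. In MYC/REG3A tumours against non-tumour liver, Hp ranged from -0.15 to 0.078 and Lcn2 from -0.32 to 0.28. In the difference of the tumour changes, Orm1 ranged from -0.046 to 0.16 and Steap4 from -0.076 to 0.33. In non-tumour liver between genotypes, Saa2 ranged from -0.74 to 0.81, Saa3 from -0.27 to 0.45, Crp from -0.13 to 0.11, Orm1 from -0.023 to 0.26, Hp from -0.27 to 0.078, Lcn2 from -1.01 to 0.15 and Steap4 from -0.34 to 0.27. In tumours between genotypes, Saa4 ranged from -0.24 to 0.030, Hp from -0.042 to 0.17, Lcn2 from -0.43 to 0.26, Steap4 from -0.048 to 0.51 and Socs3 from -0.052 to 0.24.

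Array weights gave 0.11 for Lcn2 in MYC/REG3A tumours, and -0.43, -0.12 and -0.22 for Saa2, Saa3 and Steap4 between genotypes in non-tumour liver, where centring the arrays gave 0.011 for Crp. Without MYC/REG3A mice 2 and 4, the difference of the tumour changes was -0.16 for Orm1, -0.36 for Steap4 and -0.027 for Socs3, and the difference between genotypes in tumours was -0.10 for Steap4 and -0.11 for Socs3. Quantile normalisation and 4 mice per genotype limit what these arrays can show, and the top of the scale may do so for Hp, Saa2 and the brightest of the other plasma protein genes.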

Other observations

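Relatives of Steap4 moved in opposite directions. Steap2, another metalloreductase of the family, averaged 5.44 ± 1.05 in MYC/REG3A tumours against 7.21 ± 0.32 in the non-tumour livers, and 5.08 ± 0.072 in MYC tumours against 7.45 ± 0.42 in the non-tumour livers (SD, n = 4 each). It fell by 2.08 averaged over genotypes (SE 0.218, limma adjusted p = 0.000188), more than Steap4 in size, although the difference between the genes was not tested. Steap3, which reduces iron taken up with transferrin, rose by 0.79 (SE 0.142, limma adjusted p = 0.00192). Steap1 was not high enough to be tested.

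Genes for receptors and clearance of the secreted acute phase proteins were also read. Of 8 tested, averaged over genotypes, 4 fell and 1 rose, where 21.4% of all tested genes were called lower and 21.5% higher. Cd163, the macrophage receptor that takes up haptoglobin bound to haemoglobin, fell by 0.98 (SE 0.0909, limma adjusted p = 0.000125), beside the fall of the other macrophage markers. Hmox1, which breaks down the haem taken up in this way, fell by 0.86, but its call was lost without MYC mouse 4 or MYC/REG3A mouse 1 or 3 (adjusted p up to 0.0705 by limma). Tlr4 and the lipocalin 2 receptor Slc22a17 fell by 0.39 and 0.30 (adjusted p = 0.00988 and 0.0142 by limma). In tumours Cd163 lay at 4.59 to 5.27 and Tlr4 at 4.47 to 5.09, around the array medians. Both thus passed the filter largely through the non-tumour livers, so the filter itself favoured a fall. Scarb1, a receptor of high density lipoprotein, rose by 0.26 (limma adjusted p = 0.0138). The calls of Slc22a17 and Scarb1 were lost without MYC/REG3A mice 2 and 4 (adjusted p = 0.0748 and 0.0747).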
